A study of Mus musculus with 217 samples.

Results

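Bmp6 and 3 genes of the ID family, Id1, Id2 and Id3, were followed across single chondrocytes of the mouse growth plate. They are 4 of the 9739 genes measured, and they were chosen by name, as a ligand of the bone morphogenetic protein (BMP) pathway made in maturing cartilage and as genes that commonly respond to this pathway. All 4 were in the data. The cells were taken by microdissection from the tibial growth plate at postnatal day 7, and the mice were wild-type C57/BL. Full-length cDNA was made from polyA RNA with SMARTer chemistry and sequenced as Nextera XT libraries. All 217 cells carry the same labels, and no animal or litter is named. The data are therefore 1 sample, no condition can be tested, and no p-value is given. SDs describe the spread from cell to cell, each interval is a 95% exact (Clopper-Pearson) interval that covers counting error only, and each correlation is a description across cells of 1 sample.

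BMPs are secreted ligands that bring together type I and type II serine/threonine kinase receptors. The receptors phosphorylate SMAD proteins, which enter the nucleus with the shared partner Smad4 and act on target genes, among them the ID genes. ID proteins carry a helix-loop-helix with no basic DNA-binding region, so that they bind other helix-loop-helix factors and keep them off DNA. In the growth plate, chondrocytes pass from dividing columns to prehypertrophic cells, which make the ligand Ihh, and to hypertrophic cells, which make collagen X from Col10a1. Late cells that border bone can also carry Ibsp, the gene of bone sialoprotein.

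The 3 ID genes are close relatives, and the part of their coding sequence that is most alike shows whether their reads could be confused. On GRCm38, the assembly that mm10 names, Id1 lies at chr2:152736251-152737410 (plus strand), Id2 at chr12:25093799-25097140 (minus strand), Id3 at chr4:136143497-136145755 (plus strand) and Bmp6 at chr13:38345107-38500302 (plus strand) in the GENCODE M21 annotation. The stretches below are the ungapped, in-frame window of 120 coding bases in which the 3 genes share most bases. It falls within 1 exon in each gene, at chr2:152736518-152736637, chr12:25095783-25095902 and chr4:136144002-136144121, and codes for the helix-loop-helix. Capitals mark the 77 bases that all 3 genes share, and lower case marks the rest. The sequences are from the GENCODE transcripts, 5′ to 3′ on the coding strand.
Id1: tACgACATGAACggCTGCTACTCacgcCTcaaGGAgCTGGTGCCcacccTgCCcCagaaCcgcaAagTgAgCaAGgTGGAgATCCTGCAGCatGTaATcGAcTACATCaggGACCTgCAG
Id2: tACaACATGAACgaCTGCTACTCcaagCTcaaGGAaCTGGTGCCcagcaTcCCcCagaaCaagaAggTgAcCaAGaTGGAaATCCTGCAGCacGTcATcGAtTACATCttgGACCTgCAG
Id3: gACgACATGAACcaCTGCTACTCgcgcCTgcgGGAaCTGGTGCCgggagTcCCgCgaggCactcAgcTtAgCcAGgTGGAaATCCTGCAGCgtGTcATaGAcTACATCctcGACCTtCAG
Within this window Id1 and Id2 had 81.7% of bases in common, Id1 and Id3 70.8%, and Id2 and Id3 71.7%. Over all annotated transcripts the longest run of identical bases was 11 for Id1 and Id2, 12 for Id1 and Id3 and 19 for Id2 and Id3. Reads longer than these runs differ between the genes.

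The deposited values are log2 levels with a lowest value of 0, already scaled by the authors, and the unit of abundance is not given in the sources used here. Levels are therefore compared between cells for 1 gene and not between genes. Of the 217 columns, 52 fell into 23 sets that correlated above 0.95. Each set was averaged as repeats of 1 cell, although no label names any columns as repeats. Column Cell_204 was dropped: it correlated at 0.86 to 0.88 with 4 other columns, below the level of repeats and above the 0.69 of any further column. Profiles with a level of at least 5 for Acan, the aggrecan gene of cartilage, were used. The lowest Acan level among them was 6.67 and the highest among the 11 profiles outside was 2.91. Those kept comprised 54 with both Col10a1 and Ihh, 83 with Col10a1 only, 7 with Ihh only and 32 with neither. The 14 chondrocyte markers on the list used were all measured, with a median of 100% of profiles in the classes by Col10a1 and by Ihh. A gene was called detected when 2 to the power of its level, minus 1, reached 1. Leaving aside Bmp6, the 3 ID genes, Col10a1, Ihh and Acan, the number of genes detected per profile ran from 1324 through a median of 3456.5 to 4988. Sequencing depth is unknown.

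Bmp6 and Id2 were found in most chondrocytes, and Id1 and Id3 in a minority. Bmp6 was detected in 72.7% of profiles (interval 65.5 to 79.2%) and missing from 48. Its level ran from 0 through a median of 5.11 to 8.995. Id2 was detected in 78.98% (72.2 to 84.7%) and missing from 37, with a level from 0 through a median of 6.33 to 10.61. These 2 genes were thus on in the typical chondrocyte and at 0 in some. Id1 was detected in 51 profiles (28.98%, 22.4 to 36.3%), with a median of 0 and a highest level of 8.17. Id3 was detected in 56 profiles (31.8%, 25.01 to 39.2%), with a median of 0 and a highest level of 8.92. Where Id1 and Id3 were detected, their medians were 4.39 and 5.67, so most of these profiles were well clear of the detection limit. Between 3 and 5 profiles per gene lay above 0 but under that limit. A back-transformed value between 1 and 10 was found in 17 profiles for Id1, 8 for Id3, 14 for Bmp6 and 11 for Id2. With a detection limit of 10, the share was 19.3% for Id1 and 64.8% for Bmp6, outside the intervals above.

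Columns averaged as repeats of 1 cell gave much the same value. They were picked by a correlation above 0.95, which itself favours such agreement. The largest range within a set was 1.26 for Bmp6, 1.96 for Id1, 1.14 for Id2 and 2.41 for Id3. The SD between repeats was 0.45 for Bmp6, 0.47 for Id1, 0.24 for Id2 and 0.50 for Id3, against SDs over all profiles of 2.98, 2.24, 3.34 and 2.998. Of the 23 repeat sets, 1 had Bmp6 detected in some columns and not in others, and the same number was 1 for Id1, 0 for Id2 and 1 for Id3.

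Bmp6 was detected in 72.7% of the profiles at or above the Acan limit and in 0 of the 11 below it, where a count of 0 gives an exact upper limit of 28.5%. Id3 had a mean level of 1.77 ± 2.76 (SD) above the Acan limit and 4.97 ± 4.80 (SD, n = 11) below it. It was detected in 31.8% (25.01 to 39.2%) of profiles above the limit and 54.5% (23.4 to 83.3%) of those below, and these intervals overlap. These 11 profiles were left out of what follows.

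Detection of all 4 genes went with the number of genes found in a profile. Across the profiles the Spearman correlation with genes detected was 0.33 for Bmp6, 0.28 for Id1, 0.25 for Id2 and 0.36 for Id3, against a median of 0.17 over 5380 genes found in at least 20% of profiles. The median number was 3537 in profiles with Col10a1, against 3024 in those without. The medians were 3679 genes with Ihh detected and 3303 without. Differences are therefore given first as means and then as the coefficient in a linear model with genes detected. Without that term the median of all genes was itself higher by 0.13 with Col10a1 and by 0.12 with Ihh, and with it the shift was 0.003 in both cases.

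Of the 4 genes, Bmp6 had the largest difference by Col10a1. It was detected in all but 26 of the profiles with Col10a1 (81.02%, 73.4 to 87.2%), against 17 of the 39 without (43.6%, 27.8 to 60.4%). Its lowest, median and highest levels were 0, 5.41 and 8.995 with Col10a1, against 0, 0 and 7.90 without. At the median, then, Bmp6 was present with Col10a1 and absent without it. The ranges overlapped, and the interval of 27.8 to 60.4% without Col10a1 includes a majority. Mean levels were 4.57 ± 2.73 (SD) with Col10a1 and 2.59 ± 3.001 (SD, n = 39) without, a difference of 1.98. Given genes detected the difference was 1.297, which is smaller than either SD over profiles. It was 0.92 when any value above 0 counted as detected and 0.96 with a detection limit of 10. Of the 5380 genes found in at least 20% of profiles, 3.59% were higher by at least 1 with Col10a1 and 4.26% were lower by as much, and Bmp6 ranked 80 from the top. When profiles were put into 3 groups of equal size by genes detected, the difference was 1.42 in the group with fewest genes, 1.15 in the middle group and 2.01 in the group with most genes. The last of these sets 54 profiles with Col10a1 against 5 without.

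The level of Bmp6 also followed that of Col10a1 where both were detected. Over such profiles the Spearman correlation was 0.44, and given genes detected it was 0.44 as well. Bmp6 was detected in 54 of the 69 profiles with Col10a1 at or above its median among profiles with it, and in 57 of the 68 with Col10a1 detected below it. Among the profiles with Bmp6 detected, its median level was 6.79 where Col10a1 was at or above its median, against 5.41 where it was below. Over all profiles the correlation was 0.34, and 0.26 given genes detected, where 5.21% of 5379 genes reached 0.2 and 5.26% reached -0.2. The split at detection of Col10a1 is a cut in a range: 12 profiles had Col10a1 above 0 but under the limit, and 11 had a back-transformed value between 1 and 10.

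The ID genes had smaller differences by Col10a1, and whether they differ from that of Bmp6 was not tested. Id1 averaged 1.46 ± 2.33 (SD) with Col10a1 and 0.60 ± 1.51 (SD, n = 39) without, a difference of 0.86, or 0.55 given genes detected. Id3 averaged 2.01 ± 2.88 with Col10a1 and 0.95 ± 2.15 without, a difference of 1.05, or 0.30 given genes detected. That last value was 0.83 without the 10% of profiles with fewest genes and -0.30 with the profiles below the Acan limit added. Id2 averaged 5.45 ± 3.14 with Col10a1 and 5.10 ± 3.86 without. Its difference of 0.36 was -0.51 given genes detected. That value was 0.033 with repeats kept apart and -0.034 as the mean over the 3 groups by genes detected. Of the 4 genes, then, 1 was past a difference of 1 given genes detected. Of the 5380 genes found in at least 20% of profiles, 3.59% were higher by as much and 4.26% lower. The 4 were chosen with earlier results of these data known, so the count is not a result about the set. Among profiles with both genes detected, the correlation with Col10a1 given genes detected was 0.03 for Id1 (n = 44), -0.04 for Id2 and 0.19 for Id3 (n = 49).

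**Figure D1:**
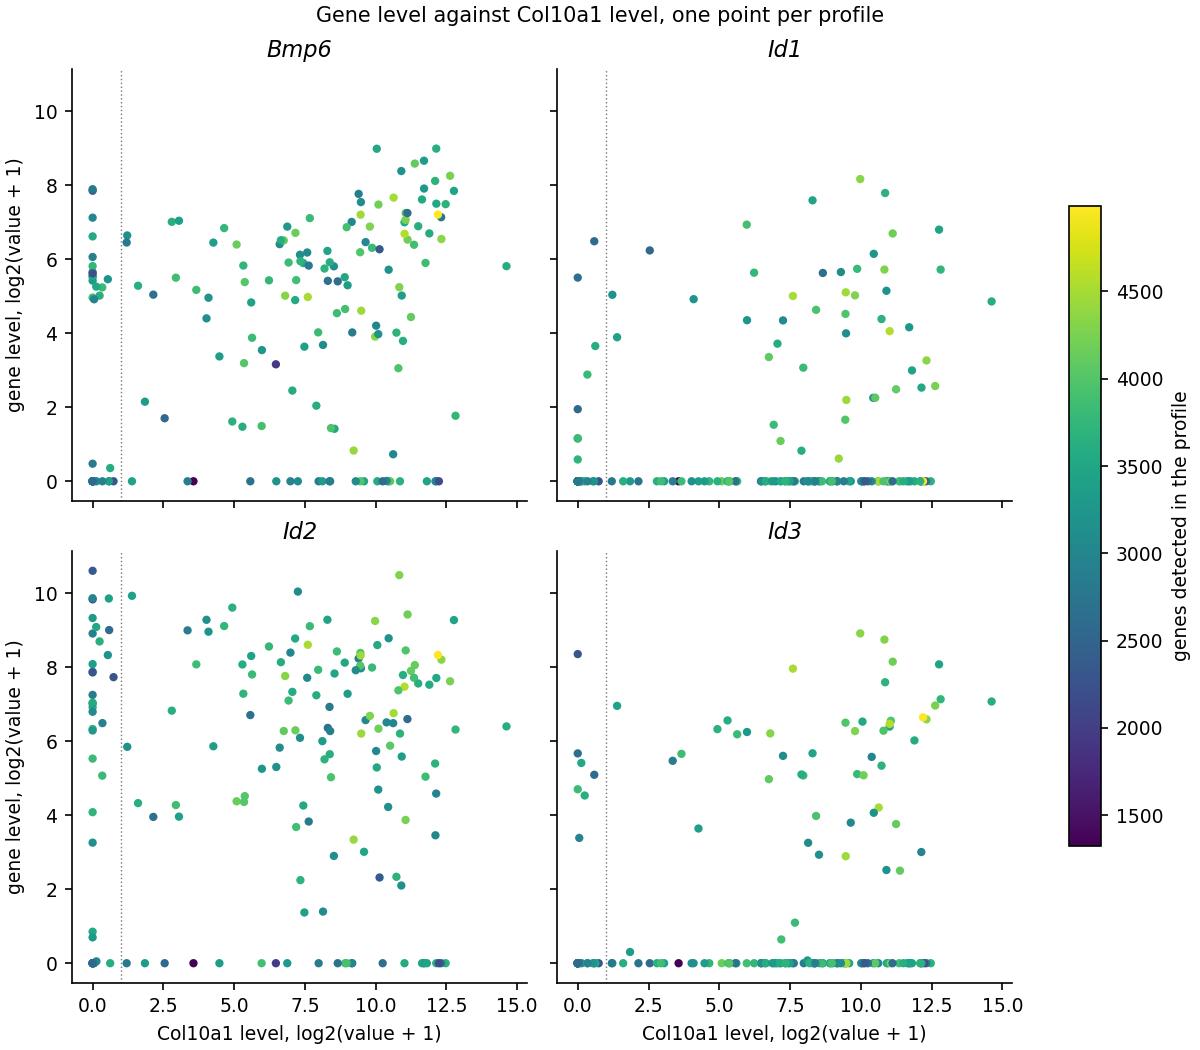
Level of each gene (vertical axis, deposited log2 scale) against the level of Col10a1 (horizontal axis, same scale) in all profiles with Acan, 1 point per profile, coloured by genes detected. The dotted line marks the detection limit. Among profiles with both detected, Bmp6 follows Col10a1 (rho 0.44), while points for Id2 show no slope (rho -0.01) and many profiles lie at 0 for Id1 and Id3.

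Ihh was detected in 61 profiles, and 54 of these also carried Col10a1. Bmp6 averaged 4.66 ± 2.70 (SD, n = 61) with Ihh and 3.85 ± 2.98 (SD) without, a difference of 0.82 that was 0.10 given genes detected. Its correlation with Ihh given genes detected was 0.024, where 1.26% of genes reached 0.2 and 1.54% reached -0.2. Id3 was detected in 28 of the 61 profiles with Ihh (45.9%, 33.1 to 59.2%), against 28 of those without (24.3%, 16.8 to 33.2%). Its mean level was 2.67 ± 3.13 with Ihh and 1.295 ± 2.43 without, a difference of 1.38, or 0.77 given genes detected. Id1 averaged 1.78 ± 2.58 with Ihh and 1.0035 ± 1.93 without, a difference of 0.77, or 0.50 given genes detected. Id2 averaged 5.97 ± 3.10 with Ihh and 5.06 ± 3.37 without, a difference of 0.92, or 0.22 given genes detected. None of the 4 was past a difference of 1 given genes detected, which 1.13% of the 5380 genes reached, while 1.12% were lower by as much. In the 3 groups by genes detected the Id3 difference was -0.37, 1.24 and 1.35 from fewest to most genes, and the Id2 difference was -1.77, 2.88 and 0.05. In the same order it was 0.72, -0.88 and 0.96 for Bmp6 and -0.31, 1.21 and 0.43 for Id1. Each of the 4 genes thus had a negative difference in 1 of the 3 groups.

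The 4 combinations of the 2 marker genes gave an order of levels with wide spreads. Bmp6 averaged 5.08 ± 2.45 in the 54 profiles with both markers, 4.24 ± 2.87 in the 83 with Col10a1 alone, 1.46 ± 2.50 in the 7 with Ihh alone and 2.83 ± 3.08 in the 32 with neither. Id3 averaged 2.83 ± 3.19, 1.47 ± 2.53, 1.45 ± 2.48 and 0.85 ± 2.10 in the same order of classes. Id1 averaged 1.99 ± 2.67, 1.12 ± 2.02, 0.17 ± 0.44 and 0.69 ± 1.65. For Bmp6, the steps within the classes with Col10a1 and within those without it were smaller than the SDs of the classes on either side. So was the step between Col10a1 alone and neither. These means are not corrected for genes detected, whose own mean was 3709, 3361, 3284 and 2994 in the same order of classes. The class with Ihh alone holds only 7 profiles. Id2 averaged 6.07 ± 2.99, 5.05 ± 3.18, 5.21 ± 4.06 and 5.07 ± 3.89, and its step of 1.02 between the classes with Col10a1 was also smaller than the SDs. Within the profiles with Col10a1, those with Ihh (n = 54) against those without (n = 83) differed, given genes detected, by 0.35 for Bmp6, 0.63 for Id1, 0.31 for Id2 and 0.71 for Id3. Here 1.51% of the 5380 genes were higher by at least 1 and 1.49% were lower.

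**Figure D2:**
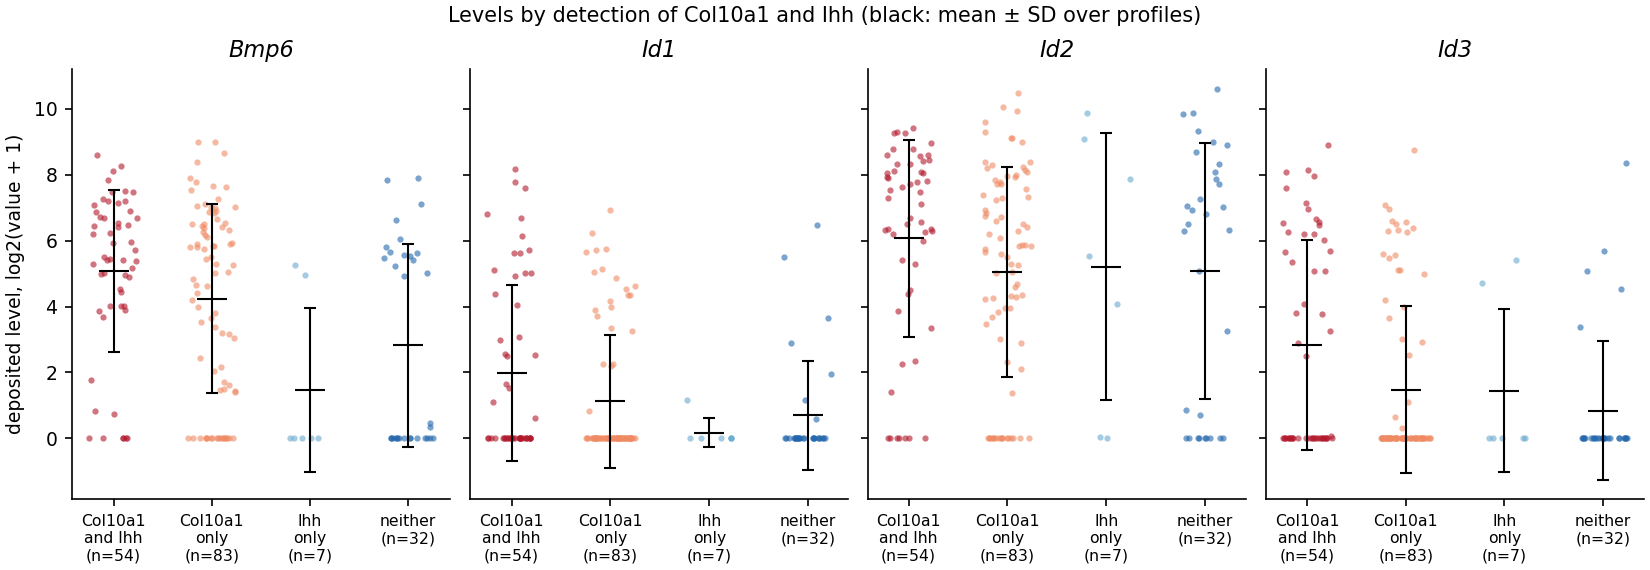
Level of each gene on the deposited log2 scale (vertical axis) in 4 classes of profiles by detection of Col10a1 and Ihh (horizontal axis, with the number of profiles), 1 point per profile, with the mean ± SD in black. Bmp6 averages 5.08 where both markers are found and 2.83 where neither is, Id2 averages between 5.05 and 6.07 in all classes, and most points of Id1 and Id3 lie at 0.

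Id3, and less so Id1, was higher in the profiles that carry Ibsp, a comparison added after the values were seen. The split is not by Ibsp alone. Col10a1 was detected in 91.9% of the profiles with Ibsp and 74.1% of those without, and Ihh in 54.1% and 29.5%. Id3 was detected in 23 of the 37 profiles with Ibsp (62.2%, 44.8 to 77.5%), against 33 of those without (23.7%, 16.9 to 31.7%). Its lowest, median and highest levels were 0, 5.08 and 8.92 with Ibsp, against 0, 0 and 8.75 without. The intervals of the shares did not overlap, while the levels did, since each class held profiles at 0 and profiles near the highest level. The shares are not corrected for genes detected, and how many other genes had intervals that did not overlap was not counted. The means were 3.77 ± 3.29 (SD, n = 37) with Ibsp and 1.24 ± 2.34 (SD) without. Given genes detected the difference was 1.88, which placed Id3 at rank 14 of 5380 genes, of which 3.03% were higher by at least 1 and 4.22% lower. It was 1.90 and 2.63 in the middle group and in the group with most genes, and -0.92 in the group with fewest, which had only 2 profiles with Ibsp. Id1 averaged 2.22 ± 2.62 with Ibsp and 1.02 ± 2.01 without, a difference of 1.20. Given genes detected the difference was 0.88, which is below 1 and placed Id1 at rank 243 of the 5380 genes. It was detected in 48.6% (31.92 to 65.6%) with Ibsp and 23.7% (16.94 to 31.69%) without. These intervals lay just apart, and the limits given for the shares of Id3 hold here too. Bmp6 and Id2 differed by 0.22 and -0.29 given genes detected.

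The differences of the ID genes by Ihh were smaller or negative once these profiles were left out. Over the profiles without Ibsp, the difference by Ihh given genes detected was -0.14 for Id3, 0.014 for Id1 and -0.14 for Id2. The correlation of Id3 with Col10a1 given genes detected was 0.044 there, against 0.16 over all profiles, and that with Ihh was -0.011, against 0.15. The correlation of Id1 with Ihh was 0.092 there, against 0.14. The difference of Bmp6 by Col10a1 was 1.34 without the profiles with Ibsp, as large as with them. Genes detected numbered 3678 at the median with Ibsp and 3303 without, and the mean level of immediate-early and heat shock genes was 4.54 ± 0.93 with Ibsp and 3.64 ± 0.73 without. With that mean as a further term, the difference of Id3 by Ibsp was 1.36.

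**Figure D3:**
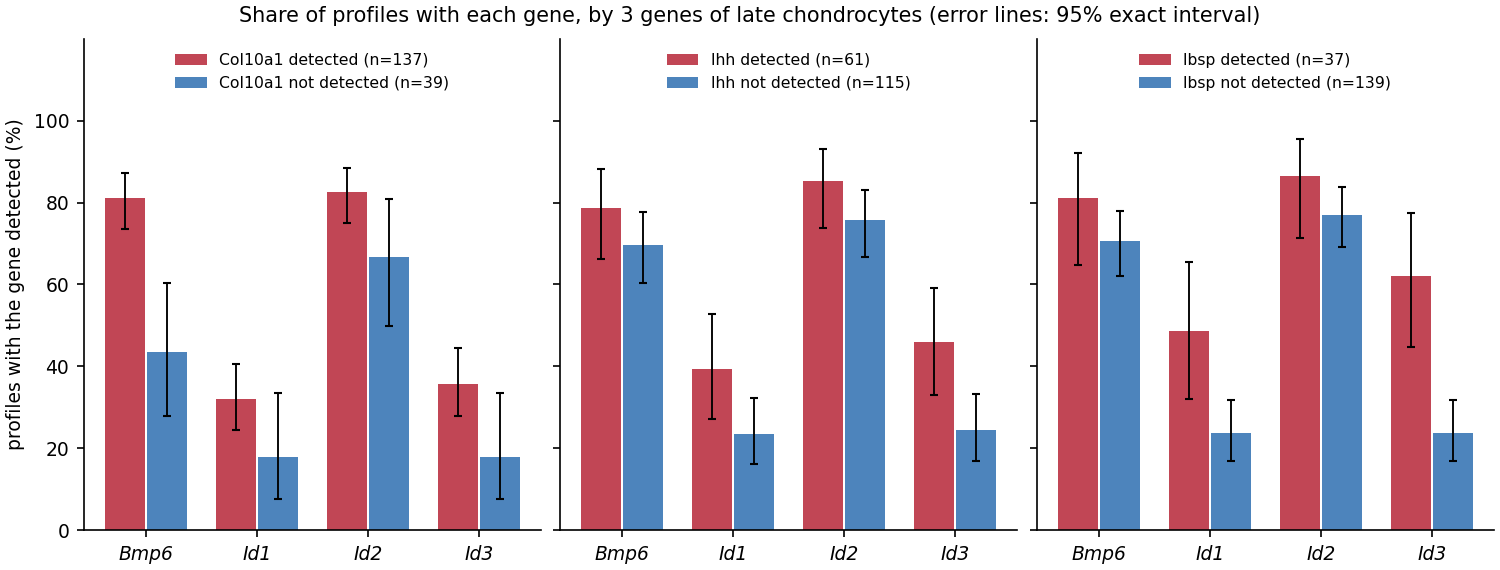
Share of profiles in which each gene was detected (vertical axis, %), for profiles with (red) and without (blue) Col10a1, Ihh and Ibsp, with 95% exact intervals as error lines. Bmp6 was detected in 81.02% of profiles with Col10a1 and 43.6% of those without. By Ibsp the shares were 62.2% and 23.7% for Id3, and 48.6% and 23.7% for Id1, whose intervals lie just apart. The intervals for Id2 overlap in all 3 panels. Shares are not corrected for genes detected.

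Id3 was correlated with Id1 and Id2, while the correlations of Bmp6 with the ID genes were near or below 0. Given genes detected, the correlation over all profiles was 0.32 for Id1 and Id3, 0.31 for Id2 and Id3 and 0.12 for Id1 and Id2. Id3 was the gene with the highest such value for Id1 among 5379 genes, and the second for Id2. Of the 56 profiles with Id3, 53 also carried Id2. Id2 itself was detected in 78.98% of all profiles. In the group with most genes it was detected in 93.2%, and that group held 30 of the profiles with Id3. The shares in this paragraph are not corrected for genes detected. Id2 was accompanied by Id3 in 53 of its profiles (38.1%, 30.03 to 46.7%), and Id3 was found in 3 of the 37 profiles without Id2 (8.11%, 1.70 to 21.9%). Id3 was detected in 29 of the 51 profiles with Id1 (56.9%, 42.2 to 70.7%), against 27 of those without (21.6%, 14.7 to 29.8%). Counting how many of the 3 were present, 26 profiles had none, 82 had 1 (72 of these Id2 alone), 40 had 2 and 28 had all 3. The median number of genes detected was 2929, 3373, 3601.5 and 3810.5 in the same order. Where both genes of a pair were detected, the levels were also correlated: given genes detected, the correlation was 0.44 for Id1 and Id3 (n = 29), 0.37 for Id2 and Id3 (n = 53) and 0.45 for Id1 and Id2 (n = 42).

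Bmp6 had correlations with the ID genes, given genes detected, of -0.13 for Id1, -0.10 for Id2 and -0.10 for Id3. Without that term they were -0.025, -0.0092 and 0.026. Id1 was detected in 39 of the profiles with Bmp6 (30.5%, 22.6 to 39.2%), against 12 of the 48 without (25%, 13.6 to 39.6%). For Id3 the shares were 35.2% (26.9 to 44.1%) with Bmp6 and 22.9% (12.03 to 37.3%) without, and for Id2 81.2% (73.4 to 87.6%) with and 72.9% (58.2 to 84.7%) without. All 3 pairs of intervals overlapped. Mean Bmp6 was 4.07 ± 3.44 (SD, n = 26), 3.94 ± 2.85 (n = 82), 4.26 ± 2.86 (n = 40) and 4.55 ± 2.73 (n = 28) in profiles with 0, 1, 2 and 3 ID genes, and these steps were smaller than the SDs. Bmp6 is a secreted protein, and the data hold no record of where in the tissue a cell lay or which cells were neighbours.

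Sox9, the transcription factor that specifies chondrocytes, had correlations of opposite sign with Bmp6 and with Id2. Given genes detected, its correlation was 0.36 with Id2, the highest of 5379 genes for Id2, and -0.21 with Bmp6. It was 0.02 with Id1 and -0.05 with Id3. Among 5379 genes ordered by their correlation with Sox9, Id2 ranked 36 from the top and Bmp6 5213. The Sox9 values were chosen after they were seen and were not recomputed with other settings. Sox9 itself was lower where Col10a1 was high, with a correlation of -0.43 given genes detected.

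**Figure D4:**
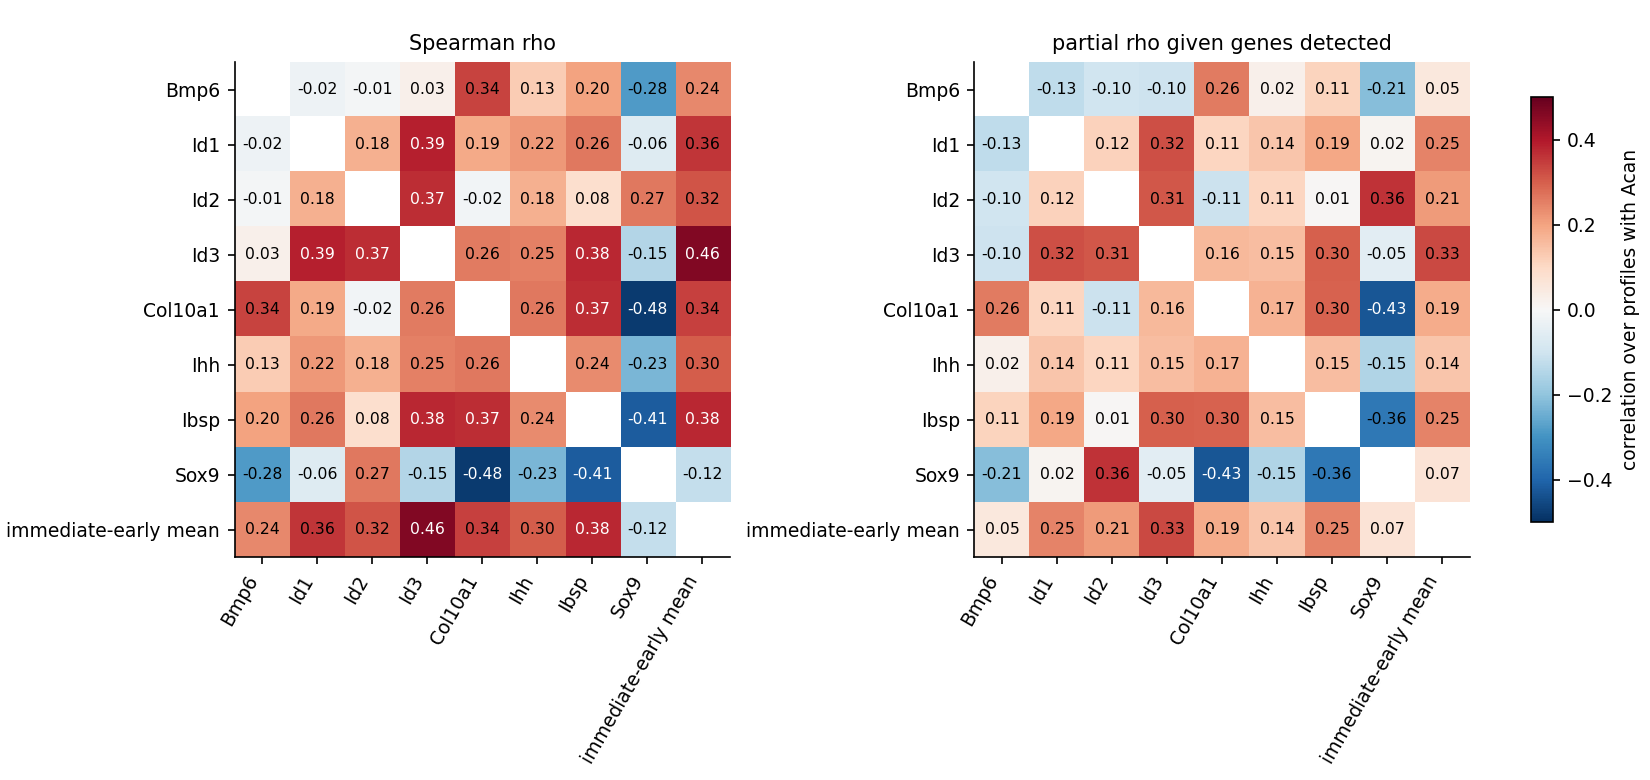
Spearman correlations over the profiles with Acan (left) and the same given genes detected (right) among Bmp6, the ID genes, Col10a1, Ihh, Ibsp, Sox9 and the mean level of immediate-early and heat shock genes, from blue (negative) to red (positive). Given genes detected, Id3 stands at 0.32 with Id1 and 0.31 with Id2, and Bmp6 is between -0.13 and -0.10 with the 3 ID genes and 0.26 with Col10a1.

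The level of immediate-early and heat shock genes, a class known to be induced when tissue is taken apart, moved with the ID genes, and most with Id3. The mean level of the 25 measured genes of this list, of 27 listed, correlated with Id3 at 0.33, with Id1 at 0.25 and with Id2 at 0.21 given genes detected, and with Bmp6 at 0.05. Among 5380 genes Id3 ranked 15, Id1 44 and Id2 93 in this. The ranking includes the 22 widely found list members, which enter the mean themselves. Of the 22 list members found in at least 20% of profiles, 7 had a correlation of at least 0.2 with Id3, led by Fos at 0.40. None had one of -0.2 or less, and over all genes the shares were 3.25% and 1.84%. With Id1 1 list member reached 0.2 and with Id2 2, against 0.595% and 1.08% of all genes. The list mean was 3.95 ± 0.85 with Col10a1 and 3.40 ± 0.70 without, and 4.16 ± 0.88 with Ihh and 3.65 ± 0.79 without. The part of dissociation in these values was not tested. With the list mean as a further term, the ID pairs kept the same sign and stayed within 0.1 of the values above.

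Markers of other cell types were examined beside these results. Both measured endothelial markers of the 11 listed were rare, with Pecam1 in 4 and Flt1 in 9 profiles, and their summed level ran from 0 to 8.05 with Col10a1 and from 0 to 4.68 without. The 9 measured osteoblast markers, of 10 listed, had a summed level of 2.90 to 71.4 (median 17.4) with Col10a1 and 2.13 to 27.1 (median 12.8) without, where 2 of them were at 0 in every profile. With Ihh the osteoblast sum was 2.13 to 71.4 (median 19.5), and without Ihh 2.19 to 39.01 (median 14.4). That list shares Ibsp, Sp7, Dmp1 and Alpl with the lists of late chondrocytes. Marker sums were not taken by Ibsp, so the part of bone cells in the difference of Id3 by Ibsp was not tested. The summed level of 5 macrophage and osteoclast markers, of 10 listed, had a median of 6.39 with Col10a1 and 5.62 without, that of 2 perichondrial and fibroblast markers, of 7 listed, 10.8 and 10.3, and that of 4 muscle markers, of 6 listed, 0 and 1.84. The part of these cell types in the results was not tested.

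Beyond Bmp6, several ligands of the family were expressed. Of 14 listed, 9 were measured. Gdf10, a divergent member related to Bmp3, was detected in 83.5% of profiles, Bmp2 in 75%, Bmp7 in 24.4%, and Bmp4, at the low end, in 2.27%. Bmp2, like Bmp6 an activating ligand, was higher with Col10a1 by 1.09 given genes detected and had a correlation with Bmp6 of 0.29. Its correlation with Col10a1 given genes detected was 0.35, against 0.26 for Bmp6, so a relation to Col10a1 was not particular to Bmp6. Gdf10 had a correlation of -0.26 with Bmp6 and 0.22 with Id3. It was higher with Ihh by 1.01, just past the mark of 1, and no gene of the list was past it with a detection limit of 10 or an Acan limit of 8.

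Few receptor genes were measured. Of 12 receptors and co-receptors listed, 5 were measured. By Col10a1 or Ihh 0 were past a difference of 1, and with 1.99% of all genes higher and 2.39% lower by Col10a1, and 0.626% and 0.616% by Ihh, a count of 0 in so few genes is near the background. The type I receptor gene Bmpr1a was detected in 56.8% of profiles, and the type II receptor gene Bmpr2 in 64.2%. Bmpr2 had the largest difference of the group, 0.70 by Col10a1. The correlation with Col10a1 given genes detected was 0.27 for Bmpr2 and 0.04 for Bmpr1a.

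Among the SMADs and their regulators, 8 of 11 were measured. By Col10a1 or Ihh 0 were past a difference of 1, again near the same background shares. Smad7, which encodes an inhibitory SMAD induced by the pathway, was detected in 65.3% of profiles and had the largest differences, 0.62 by Col10a1 and 0.70 by Ihh. It was also the SMAD gene closest to the ID genes, with correlations given genes detected of 0.33 with Id3, 0.23 with Id1 and 0.18 with Id2, and -0.03 with Bmp6.

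Of 18 extracellular antagonists and modulators listed, 11 were measured. By Col10a1 3 were higher by at least 1 and 1 was lower, against 1.99% and 2.39% of all genes. Twsg1, which binds BMPs outside the cell, was higher with Col10a1 by 1.37, Chrdl1, a chordin-like antagonist, by 1.27 and Nog, the gene of the antagonist noggin, by 1.26. Fstl1, a follistatin-like gene, had differences of -1.298 by Col10a1 and -1.07 by Ihh. Bambi, the gene of a decoy receptor, had a correlation of 0.40 with Col10a1 and 0.21 with Id3.

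Other target genes were rarer than Id2. Of 11 listed, 10 were measured, and of the 6 besides the ID family Dlx3, a homeobox gene, was the most widely found, in 23.9% of profiles. Dlx3 had correlations of 0.31 with Id3, 0.22 with Id1 and -0.03 with Bmp6. Id4 was detected in 9.66% of profiles. Over the 43 measured genes of the whole pathway list, 5 were higher by at least 1 with Col10a1 and 1 was lower, against 1.99% and 2.39% of all 9739 genes. With Ihh, 1 was higher and 1 was lower, against 0.626% and 0.616% of all genes. The higher count was 0 with a detection limit of 10 and with an Acan limit of 8, and the lower count was 0 in 6 of 11 alternatives. The median difference given genes detected was 0.15 for the list and 0.003 for all genes by Col10a1, and 0.08 and 0.003 by Ihh. The list includes Bmp6 and the 3 ID genes, and 39 measured genes remained without these 4. Of the 39, 4 were higher by at least 1 with Col10a1 and 1 was lower. Their median difference was 0.12 by Col10a1 and 0.0014 by Ihh. The count of 5 was 2 when any value above 0 counted as detected, and 3 without the 10% of profiles with fewest genes.

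Of 10 listed helix-loop-helix partners and relatives of the ID proteins, 5 were measured. Bhlhe40, a repressor that also responds to hypoxia, was detected in 82.4% of profiles and was higher with Col10a1 by 1.57, while the other 4 were detected in 5.11 to 7.39%. Its correlation was 0.23 with Bmp6 and 0.26 with Id3. Of 10 cell cycle genes found in at least 20% of profiles, 0 reached 0.2 in either direction with Id3, against 3.25% and 1.84% of all genes, so this count is near the background. The count was also 0 with Id1. With Bmp6 1 reached 0.2 (Cdkn1c, 0.206) and with Id2 1 (Ccnd1, 0.205), against 1.34% and 1.08% of all genes. Both values lie just past 0.2.

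**Figure D5:**
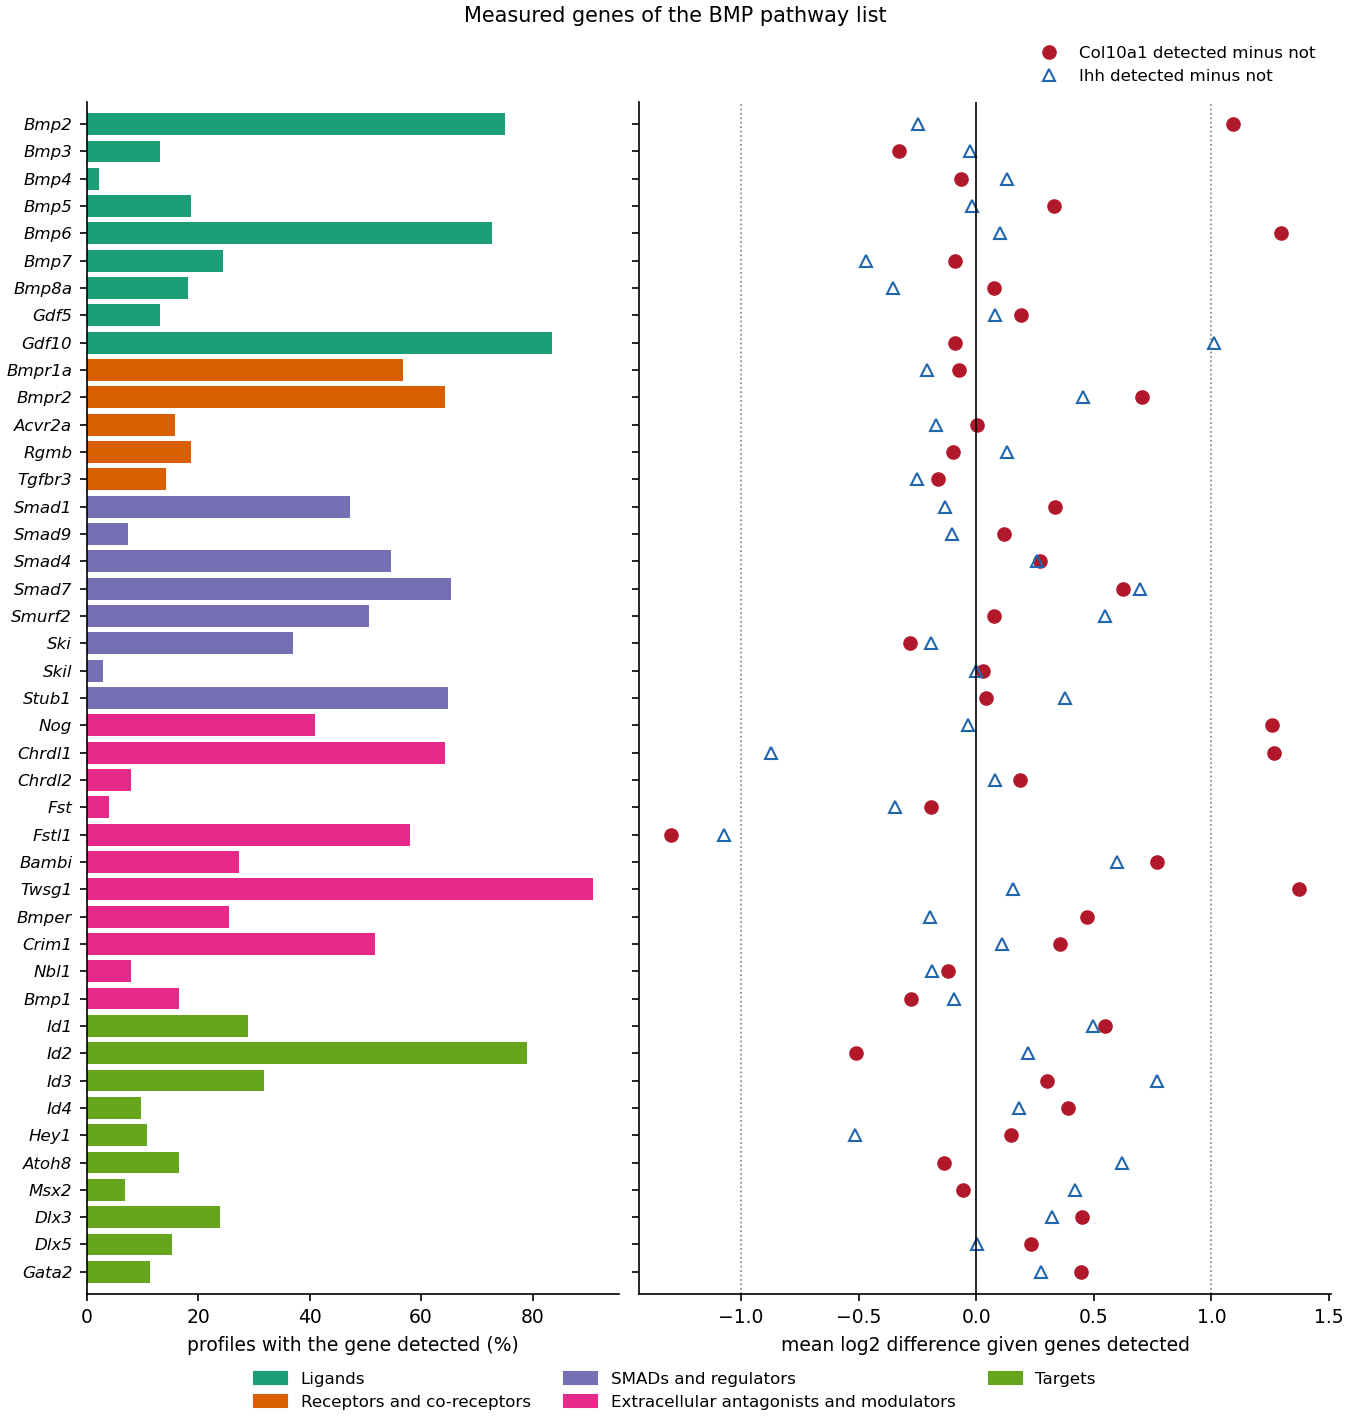
Share of the profiles with Acan in which each of the 43 measured genes of the BMP pathway list was detected (left, %, coloured by role) and its mean log2 difference given genes detected (right) for Col10a1 detected minus not (red) and Ihh detected minus not (blue). Dotted lines mark differences of 1 and -1: Bmp6, Bmp2, Nog, Chrdl1 and Twsg1 lie beyond 1 by Col10a1, and Fstl1 lies below -1 by both.

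The genes closest to each of the 4 differed. For Bmp6 the highest correlations given genes detected, over all profiles and 5379 genes, were with Sparc (0.38), which encodes the matrix protein osteonectin, S100a16 (0.36), a calcium-binding protein, Cpe (0.35), carboxypeptidase E, Col6a2 (0.34), a collagen VI chain, and Arl8b (0.31). The lowest were with Ndufa4l2 (-0.33), H19 (-0.31), a non-coding RNA of fetal growth, and Srsf5 (-0.29). In all, 1.34% of genes reached 0.2 with Bmp6 and 0.837% reached -0.2. For Id1 they were Id3, Klf10 (0.32), a factor induced by TGF-beta, Thoc6 (0.31), Triap1 (0.27) and 2810001G20Rik (0.27), with Slc22a4 (-0.28), Ptpre (-0.27) and Tex10 (-0.25) lowest. For Id2, Sox9 and Id3 were followed by Rcan1 (0.30), a calcineurin regulator, and Zdhhc20 (0.28), with Steap1 (-0.28), Fam129a (-0.27) and Nf1 (-0.27) lowest. For Id3 they were Rps15a-ps4 (0.40), Fos (0.40), Gadd45g (0.35), a growth-arrest gene, Smad7 (0.33) and Ftl1 (0.32), a ferritin chain, with Eif1a (-0.34), Emp1 (-0.33) and Anxa1 (-0.31) lowest. Rps15a-ps4 is named as a pseudogene of a ribosomal protein gene with near-identical sequence, so its value is uncertain. The share of genes reaching 0.2 was 0.595% for Id1, 1.08% for Id2 and 3.25% for Id3, and the share reaching -0.2 was 0.372%, 0.409% and 1.84%. Correlations of this size in values with many zeros are weak, and the order of the names rests on small differences.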

How the data were processed

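The authors deposited log2 values, 1 column per cell. The submitters' processing notes name TopHat and the build mm10. Which quantifier, annotation, filters and abundance unit came after is not given in the sources used here. Both the log base of 2 and a pseudocount of 1 were taken from the values: back-transformed totals ran from 394406 to 616257 per cell (median 476331), so values were scaled before deposit and depth is unknown. Each gene is above 0 in at least 10 columns, and 62.3% of values are 0. An exact 0 can be a failed estimate. The 1 row with no gene name was left out.

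Columns with r above 0.95 were averaged, Cell_204 was dropped, and profiles with Acan of at least 5 were kept. A gene was detected where its linear value reached 1. Differences are means of log2(value + 1) with Col10a1, Ihh or Ibsp detected minus not, and coefficients from a linear model with genes detected, fitted for all 9739 genes. Partial correlations used residuals of ranks. A difference of 1 or a correlation of 0.2 was used as a mark of size. No animal is named, so no p-value was computed. No doublet caller was run.

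The genes, lists and comparisons were chosen with earlier results of these data known. The genes named were the 4, the marker genes, the list members of largest or smallest value, and for each of the 4 the 5 genes of highest and 3 of lowest partial correlation. Of these, 1 is not reported here. The Ibsp comparison, the Sox9 values and some list members given for a second measure were chosen after their values were seen. Alternatives were detection above 0 or at 10, repeats kept apart, Cell_204 kept, no Acan limit or a limit of 8, dropping the gene-poorest 10% of profiles or those with Ibsp, upper-quartile scaling, a pseudocount of 0.1, no term for genes detected, the mean over 3 groups by genes detected, a term for immediate-early genes, and Pearson correlation. The steps were tested on simulated data. Sequences and positions are from GENCODE M21. Statistics used SciPy 1.17.1 and NumPy 2.4.6, tables pandas 2.3.3, repeat sets NetworkX 3.6.1 and figures matplotlib 3.10.9, all under Python 3.11.15.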

Additional observations from a re-analysis of the deposited data

How the results depend on the processing

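Bmp6 was higher with Col10a1 in all 13 alternatives, by 0.92 to 2.06, and by at least 1 in 11 of them. The values below 1 came from counting any value above 0 as detected (0.92) and from a detection limit of 10 (0.96). Its correlation with Col10a1 ran from 0.20 to 0.34 in 14 alternatives. The correlations of Id3 with Id1 (0.26 to 0.43) and with Id2 (0.25 to 0.37) stayed above 0.2 in all 14, and 0.43 was the Pearson value for Id1 and Id3. Id3 was higher with Ibsp in all 12 alternatives, by 1.21 to 2.74. The values that follow moved by more than the SD between repeats, by more than 0.1 for a correlation, or by more than 1.5 times for a count, and the cause was not tested.

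Without the term for genes detected, differences by Col10a1 were 1.98 for Bmp6, 0.36 for Id2 and 1.05 for Id3. By Ihh they were 0.82 for Bmp6, 0.92 for Id2 and 1.38 for Id3, and by Ihh within profiles with Col10a1 0.84, 1.02 and 1.36. By Ibsp they were 1.15 for Bmp6, 0.70 for Id2 and 2.54 for Id3. Correlations were 0.13 for Bmp6 and Ihh, -0.025 for Bmp6 and Id1 and 0.026 for Bmp6 and Id3, and pathway genes lower by Col10a1 numbered 0, higher by Ihh 2 and lower by Ihh 0. Of all genes past 1 by Col10a1, 87.1% were higher without that term, against 45.4% with it, and by Ihh 93.2%, against 50.4%. As the mean over 3 groups by genes detected, differences by Col10a1 were -0.034 for Id2 and 0.93 for Id3, that of Id3 by Ibsp was 1.21, and 0 pathway genes were lower by Col10a1 or by Ihh.

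Counting any value above 0 as detected gave 0.49 for Id2 by Ihh, 0.58 within profiles with Col10a1, 2 pathway genes higher by Col10a1 and 0 lower by Ihh. A limit of 10 gave Id2 -0.14 by Col10a1 and 0.59 by Ihh, Bmp6 0.91 by Ibsp, and 0 pathway genes higher or lower by Ihh. Repeats kept apart gave Id2 0.033 by Col10a1 and 0 genes lower by Ihh. With all profiles whatever their Acan, differences by Col10a1 were 1.74 for Bmp6, 0.13 for Id2 and -0.30 for Id3, and Bmp6 differed by -0.56 by Ibsp. An Acan limit of 8 left 0 pathway genes lower by Col10a1 and 0 higher or lower by Ihh. Without the 10% of profiles with fewest genes, Id2 was at -0.044 and Id3 at 0.83 by Col10a1, with 3 pathway genes higher. A pseudocount of 0.1 gave 2.06 for Bmp6 by Col10a1, 1.48 for Id1 and 2.74 for Id3 by Ibsp, and 5 pathway genes higher and 2 lower by Ihh. Without profiles with Ibsp, differences by Ihh were 0.014 for Id1, -0.14 for Id2 and -0.14 for Id3, and the correlations of Id3 were 0.044 with Col10a1 and -0.011 with Ihh. With immediate-early genes as a term, differences by Ibsp were -0.71 for Id2 and 1.36 for Id3. In all, 35 differences, 6 correlations and 16 counts moved by this much, and 0 called values changed sign. Of the mean levels 5 moved by more than the SD between repeats. Of the shares detected 2 fell outside their intervals, Bmp6 at 64.8% and Id1 at 19.3% with a limit of 10.

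No paired analysis was possible because all cells form 1 group. Depth is unknown, so a 0 for Id1 or Id3 gives no limit on the RNA in a cell.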
